A study of Mus musculus with 2 samples.

Results

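Short interspersed elements (SINEs) were followed in mouse embryonic stem (ES) cells with and without the histone chaperone Daxx. The SINE families were all entries of the deposited repeat table whose class is SINE, 40 of 634 families, and the table assigns them to 7 superfamilies: Alu (20 families, B1 among them), B2 (5), B4 (3), ID (4), MIR (5), one named SINE (2) and one named tRNA (1). Membership used the annotation alone and no measured value. The cells carried loxP-flanked alleles of Daxx (Daxx fl/fl) and the RosaCreERT transgene, a Cre recombinase expressed from the Rosa locus that acts once tamoxifen is given, on a B6/129 background, and grew on feeder cells inactivated with mitomycin C. The control culture received DMSO. The Daxx-deleted culture received 1 µM 4-hydroxytamoxifen (4-OHT) for 48 h, and recovered for 3 days. Both groups share the floxed genotype and the Cre, and the drug was given to the deleted culture alone, so deletion of Daxx and the drug itself cannot be told apart. RNA of each condition was sequenced in 1 library. No value has a replicate error, no test was possible, and depth is unknown, so the differences below describe these 2 libraries. The table holds no genes, so neither Daxx nor markers of ES or feeder cells could be checked, and the direction of each comparison rests on the labels.

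SINEs encode no protein. They are copied by the reverse transcriptase of a LINE, which is L1 for B1, B2, B4 and ID, and L2 for the ancient MIR elements. A SINE has an internal RNA polymerase III promoter inherited from a small RNA gene, 7SL RNA for B1 and tRNA for B2, ID and MIR, but most copies lie inside or near genes and are also read through as introns or untranslated regions of longer transcripts. In mouse cells SINE copies lie mainly in gene-rich, early replicating chromatin, whereas the endogenous retroviruses (ERVs) that Daxx, Atrx and histone H3.3 are known to act on are silenced by H3K9 trimethylation. The study asked whether ERVs are reactivated when Daxx is removed, and the SINEs are the short, abundant class measured beside them.

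The gene behind the ID superfamily shows what its copies descend from. Bc1 is the neuronal RNA gene that seeded rodent ID elements. It is shown 5′ to 3′ as transcribed, from GENCODE M21 on GRCm38, a later build than the mm9 of the measurements, and lies at chr7:144914470-144914637 on the plus strand. Capitals mark the 76 bases before the first run of at least 8 A, which are the ID part. Bc1 was not measured in the table, and the sequences of the SINE families themselves were not used here.
Bc1: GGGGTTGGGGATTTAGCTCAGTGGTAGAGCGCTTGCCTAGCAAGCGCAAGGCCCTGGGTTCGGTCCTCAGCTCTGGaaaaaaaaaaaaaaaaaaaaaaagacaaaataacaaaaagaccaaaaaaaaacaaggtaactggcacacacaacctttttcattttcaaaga

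All 40 SINE families had a value above 0 in both libraries, and all 40 lay above the median mean level of the 634 families, 0.0238 RPKM (a read density per length of sequence, on a scale set by each library's exonic gene reads). Of the 102 families in the table with a mean above 0.1 RPKM, 30 were SINEs. Together the 40 families hold 1391217 annotated copies, and 27 of them have at least 10000 copies. Changes are given as log2((Daxx-deleted + 0.001) / (control + 0.001)) for families whose mean reached 0.01 RPKM and which have 100 copies or more, called the floor here, which 436 of the 634 families reached. Ratios are Daxx-deleted over control, as quotients of the deposited values. Of the 40 SINE families, 37 reached the floor. All 40 met the level limit, and 3 families of the Alu superfamily had too few copies: FLAM_A (73), Alu (31) and Alu_5 (19). The nearest families inside the copy limit were AluF_3 (166) and FAM (214).

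**Figure D1:**
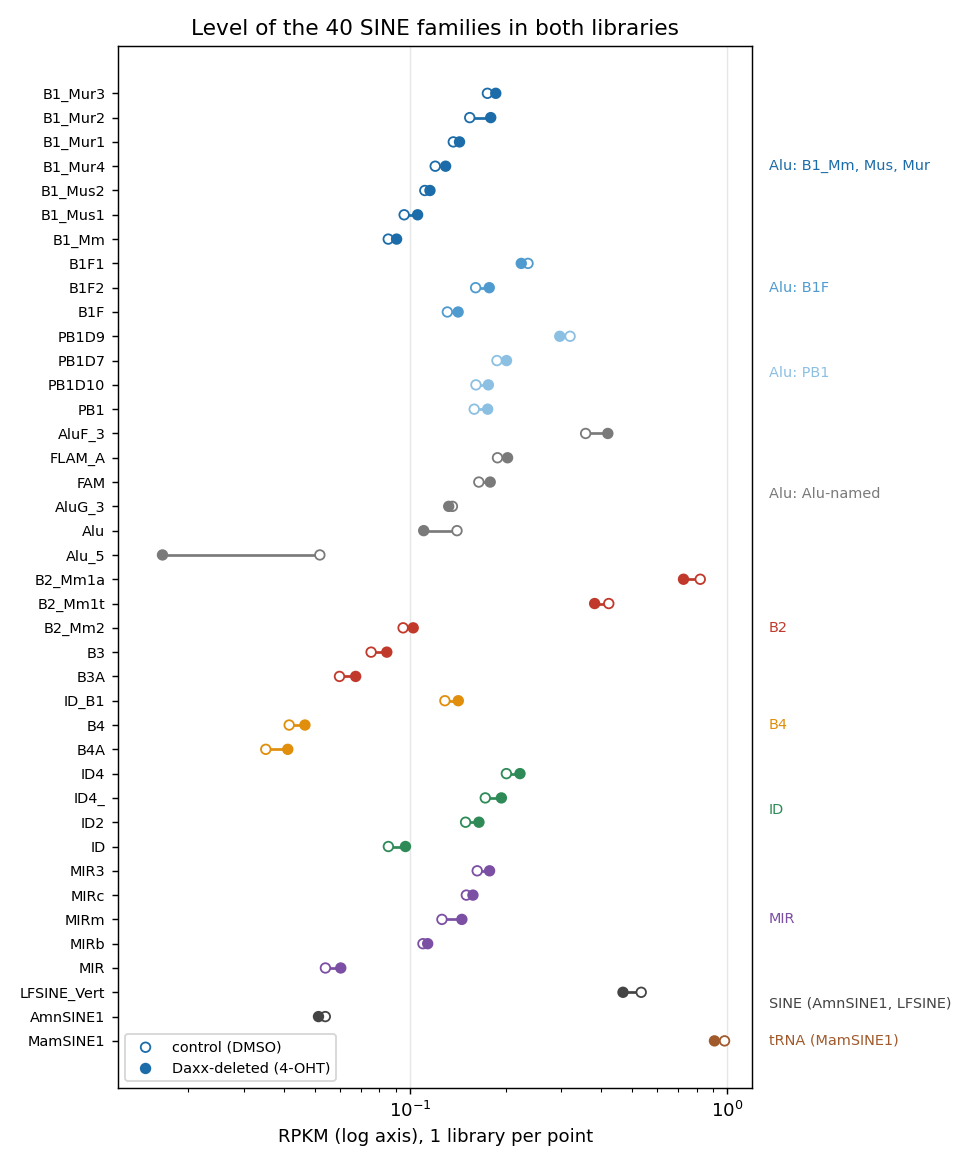
Level of each of the 40 SINE families in RPKM on a log axis, 1 library per point, with open circles for the control and filled circles for the Daxx-deleted library, grouped and coloured by superfamily (Alu divided by family name). MamSINE1 and B2_Mm1a lie at the right, and apart from Alu_5, with 19 copies, the paired points lie close together.

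None of the 37 SINE families at the floor was 1.5-fold higher or 1.5-fold lower in the Daxx-deleted library. Over all 436 families at the floor 16.5% passed 1.5-fold in either direction, 15.1% higher and 1.38% lower. At 1.2-fold the SINE count was still 0 of 37, against 40.6% of all families. The ratios of the 37 families ran from 0.876 for LFSINE_Vert to 1.17 for AluF_3. Of the 37 families 29 were higher after deletion and 8 lower, whatever the size. Among all families at the floor 78.9% were higher and 21.1% lower, so the share of higher SINEs was near the background. The median SINE change was 0.12 on the log2 scale, with quartiles of 0.05 and 0.16. The median family of the whole table was itself higher by 0.18 on the log2 scale, and relative to it the SINE median was -0.06, with 5 SINE families above that family and 32 below. The 5 were AluF_3, B4A, B1_Mur2, MIRm and ID, and ID lay above it by less than 0.001. RPKM are scaled by exonic reads of genes, so a shift of that scale between the libraries and a shift of all families cannot be told apart.

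The SINE changes were also narrow beside those of the LINE and LTR classes taken whole. Their SD over the 37 families was 0.11 on the log2 scale, against 0.34 over 78 LINE families and 0.44 over 320 LTR families. A narrow spread was not particular to SINEs. Inside the LINE class the SD was 0.35 over 70 L1 families but 0.04 over the 4 L2 families. The L2 changes ran from 0.07 to 0.16, and 0 of the 4 were past 1.2-fold. Copy number also differed between the classes: at the floor the median SINE family has 24899 copies, the median LINE family 3707 and the median LTR family 1020. Among families with at least 10000 copies, the SD was 0.10 over 27 SINE, 0.41 over 16 LINE and 0.13 over 17 LTR families, and 0 SINE, 4 LINE and 5 LTR families were past 1.2-fold. With at least 100 and under 1000 copies, 0 of 6 SINE, 12 of 14 LINE and 78 of 158 LTR families were past 1.2-fold. The SDs there were 0.16, 0.54 and 0.48. From 1000 to under 10000 copies the SD was 0.04 over 4 SINE, 0.22 over 48 LINE and 0.41 over 145 LTR families. Within SINEs and LINEs the spread thus did not fall steadily with copies. Level differed between these classes too: in the group with at least 10000 copies the median control level was 0.137 RPKM for SINE, 0.0207 RPKM for LINE and 0.0274 RPKM for LTR families. The part of level and copies in the spread was not tested.

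**Figure D2:**
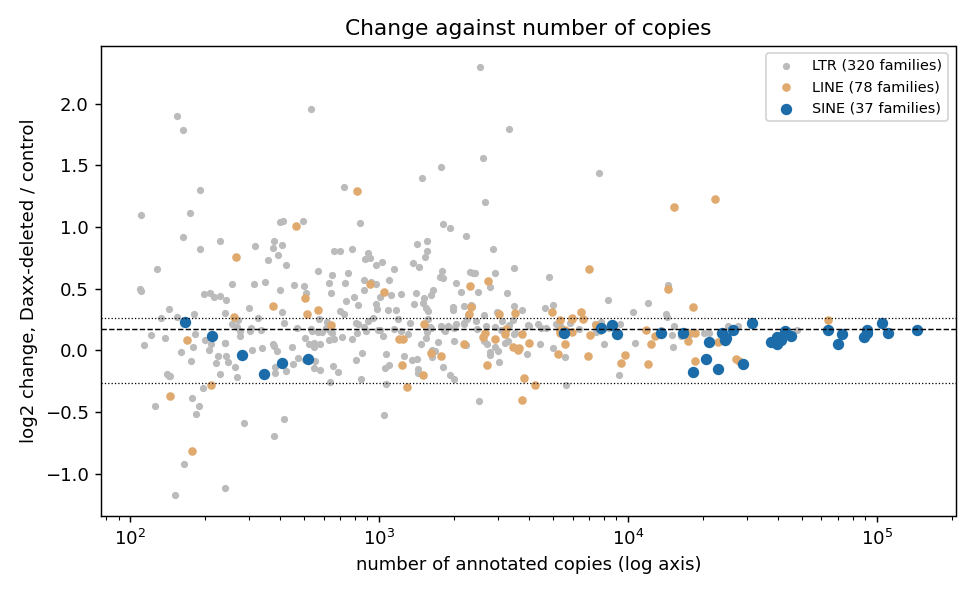
Log2 change (Daxx-deleted over control) of the families at the floor against the number of annotated copies on a log axis, with 37 SINE, 78 LINE and 320 LTR families. The dotted lines mark 1.2-fold in each direction and the dashed line the median of all 436 families (0.18); all SINE points lie between the dotted lines, and most lie just below the dashed one.

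The B1 elements, which belong to the table's Alu superfamily because both descend from 7SL RNA, were higher after Daxx deletion in each of 7 families, with a change below that of the median family in 6 of them. These 7 families are B1_Mm, B1_Mus1 and B1_Mus2, the young mouse groups, and the older muroid B1_Mur1 to B1_Mur4. The young groups had the lowest levels: B1_Mm stood at 0.0853 RPKM (control) and 0.0906 RPKM (Daxx-deleted), with 41277 copies; later pairs follow the same order. B1_Mus1, with 91451 copies the most abundant B1, stood at 0.0958 and 0.106 RPKM, and B1_Mus2 at 0.111 and 0.115 RPKM. The muroid groups followed in the order B1_Mur4 (0.120 and 0.129 RPKM), B1_Mur1 (0.137 and 0.143 RPKM), B1_Mur2 (0.154 and 0.180 RPKM) and B1_Mur3 (0.175 and 0.186 RPKM). The highest of the 7, B1_Mur3, stood 2.05 times above B1_Mm in the control and in the Daxx-deleted library. The changes ran from 0.05 for B1_Mus2 to 0.22 for B1_Mur2 on the log2 scale, and their median, 0.09, was -0.09 when set against the median family.

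The remaining Alu superfamily held the B1F group, the proto-B1 elements (PB1) from before the rodent B1 took its present form, and families named after Alu and its monomers. B1F1 and PB1D9, the highest of their groups, were the ones with lower values. B1F1, at 0.235 and 0.224 RPKM, had a ratio of 0.952. PB1D9, at 0.319 and 0.296 RPKM, had a ratio of 0.928. The other members were higher in the Daxx-deleted library and below the median family: B1F at 0.131 and 0.142 RPKM, B1F2 at 0.161 and 0.178 RPKM, and PB1 at 0.159 and 0.176 RPKM. PB1D10 (72485 copies) stood at 0.161 and 0.176 RPKM, and PB1D7 at 0.188 and 0.201 RPKM. PB1D9 was thus 2.01 times the level of PB1 in the control and 1.69 times in the Daxx-deleted library.

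Families named after Alu and its fossil monomers have few copies in the mouse annotation, and they held both the highest SINE change and the extremes below the copy limit. AluF_3 (166 copies), at 0.358 and 0.420 RPKM, had a ratio of 1.17. AluG_3 (282 copies) stood at 0.136 and 0.132 RPKM, and FAM, a fossil Alu monomer, at 0.165 and 0.179 RPKM. Of those below the limit, FLAM_A, a free left Alu monomer, stood at 0.189 and 0.203 RPKM and Alu at 0.141 and 0.110 RPKM. Alu_5, which has the fewest copies of the SINE families, stood at 0.0519 and 0.0166 RPKM, and its ratio was 0.319. Over the 17 Alu superfamily members at the floor 14 were higher and 3 lower, and the median change was 0.11 (-0.07 against the median family).

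The B2 superfamily, tRNA-derived elements specific to rodents whose RNA polymerase III transcripts are known to increase on cell stress, divided by level. For B2_Mm1a (18276 copies) the levels were 0.822 and 0.728 RPKM, with a ratio of 0.886 and a difference of -0.0940 RPKM. For B2_Mm1t (22966 copies) they were 0.423 and 0.382 RPKM, with a ratio of 0.902. These young B2 groups were lower after deletion with or without subtraction of the median family, against which their log2 changes were -0.35 and -0.32. The third young group and both older ones had higher values, all below the median family. B2_Mm2 (88624 copies) stood at 0.0950 and 0.102 RPKM, a ratio of 1.08. B3 had the most copies of any family in the table, 144766, and stood at 0.0753 and 0.0844 RPKM. B3A stood at 0.0599 and 0.0673 RPKM, and the ratio was 1.12 for both. The level of B2_Mm1a was 8.65 times that of B2_Mm2 in the control and 7.12 times in the Daxx-deleted library. Weighted by copies, the mean level of the superfamily was 0.135 RPKM in both libraries. Related B2 copies can hold the same multi-mapped reads, so these 5 values are not independent.

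The B4 superfamily had the lowest median level, 0.0416 RPKM in the control and 0.0466 RPKM after deletion. B4, a fusion of an ID-like part with a B1-like part, stood at 0.0416 and 0.0466 RPKM, and B4A at 0.0351 and 0.0411 RPKM. B4A had a ratio of 1.17 and the second-highest log2 change of the 37 families, 0.22. ID_B1, also a composite of ID and B1 and with 110572 copies, stood at 0.129 and 0.142 RPKM, 3.10 times the level of B4 in the control. The B4 median change of 0.16 became -0.02 against the median family.

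The ID superfamily, descended from Bc1, had the tightest set of changes among the superfamilies with at least 3 families at the floor, from 0.14 to 0.18 on the log2 scale (SD over the 4 families 0.02). ID4 stood at 0.201 and 0.222 RPKM, ID4_ at 0.173 and 0.194 RPKM, ID2 at 0.150 and 0.165 RPKM and ID at 0.0854 and 0.0967 RPKM. Their ratios lay between 1.10 and 1.13 although the level of ID4 was 2.36 times that of ID in the control. Their median change of 0.15 became -0.02 against the median family. ID elements are short and alike, and members can share multi-mapped reads.

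The MIR superfamily, mammalian-wide elements far older than the rodent SINEs, was higher after deletion in all 5 families, and 4 of the 5 changes lay below the median family. MIR (42872 copies) had the lowest level, 0.0541 and 0.0604 RPKM, and MIR3 the highest, 0.163 and 0.178 RPKM. Between them stood MIRb at 0.110 and 0.114 RPKM, MIRm at 0.126 and 0.146 RPKM, and MIRc at 0.150 and 0.158 RPKM. The smallest change was that of MIRb, 0.05, and the largest that of MIRm, 0.21, and the median was 0.13 (-0.05 against the median family).

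The last 3 families are vertebrate or mammalian relics with few copies, and each was lower after deletion. MamSINE1, a tRNA-derived element (408 copies), had 0.980 and 0.911 RPKM, the highest level of all SINE families, with a ratio of 0.929. LFSINE_Vert, a SINE shared with lobe-finned fish (344 copies), had 0.535 and 0.469 RPKM, the lowest ratio of the 37 SINE families at the floor. AmnSINE1, found across amniotes (517 copies), had 0.0540 and 0.0514 RPKM, a ratio of 0.952. Their log2 changes were -0.11, -0.19 and -0.07, and all lay below the median family. With so few copies a value can rest on a small number of expressed loci, which the table does not resolve. Together with MIR, the 8 older families had a median change of 0.06 (5 higher, 3 lower), and the 29 rodent families, here the Alu, B2, B4 and ID superfamilies, 0.13 (24 higher, 5 lower); relative to the median family these were -0.12 and -0.05. With at least 1000 copies required, which leaves 5 older families, all MIR, and 26 rodent ones, the medians were 0.128 and 0.134. The Alu superfamily holds the few Alu-named families in that count.

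**Figure D3:**
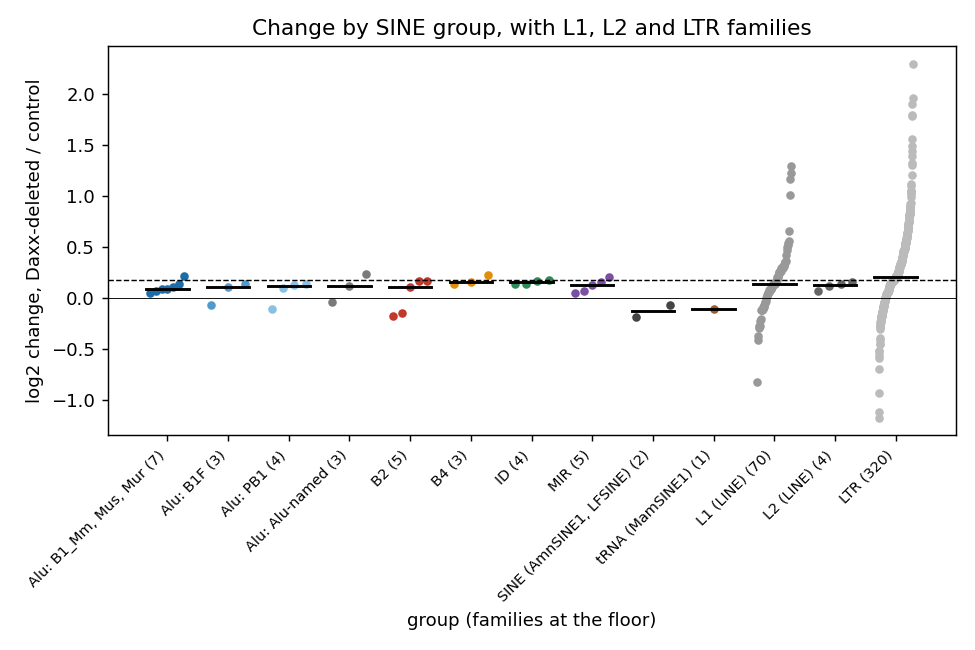
Log2 change (Daxx-deleted over control) by SINE group, with the L1, L2 and LTR families for comparison; each point is a family at the floor (numbers in parentheses), the bars are group medians, and the dashed line is the median of all 436 families (0.18). SINE groups lie between -0.19 and 0.23, the B2 group is divided, and the L1 and LTR columns extend above 1.

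The LINEs that copy SINEs were set beside them. The 4 L2 families, partners of MIR, were all higher with a median change of 0.13, equal to the MIR median after rounding, and all 4 lay below the median family. L2a, the L2 with the most copies, stood at 0.0623 and 0.0653 RPKM. At the floor the median of 70 L1 families was 0.14 (-0.04 against the median family), close to the 0.13 of the rodent SINEs. The L1 range was wide, from -0.82 to 1.29. Of the 70 L1 families 5 were 1.5-fold higher and 1 was 1.5-fold lower, beside 15.1% and 1.38% of all 436 families at the floor. Lx8, the L1 with the most copies at the floor, stood at 0.0129 and 0.0155 RPKM. Levels of L1 were low beside those of SINEs, with a median of 0.0201 RPKM in the control against 0.150 RPKM for the 37 SINEs. No test of these differences was possible.

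High level and a lower value after deletion went together. Of the 6 SINE families whose mean reached 0.3 RPKM, 5 were lower after deletion (MamSINE1, B2_Mm1a, LFSINE_Vert, B2_Mm1t and PB1D9) and AluF_3 was higher. Of the other 31 families 28 were higher and 3 lower. The median changes of these sets were -0.13 and 0.13, or -0.30 and -0.05 relative to the median family. Across the 37 families, Pearson's r between log2 mean level and log2 change was -0.58 and Spearman's rho was -0.38, a description over families that share both libraries and can share reads. Without B2_Mm1a and B2_Mm1t, over 35 families, r was -0.46 and rho was -0.27. Families with more copies had lower levels (rho of -0.55 over the 37 families). Between number of copies and log2 change, Pearson's r on log2 copies was 0.33 and rho was 0.23. Of the 6 SINE families with under 1000 copies 4 were lower, against 0 of 4 from 1000 to under 10000 and 4 of 27 above that. The parts of level and copies in these changes were not tested. Families of other classes at the same level were mixed: of 14 whose mean reached 0.3 RPKM, 7 were higher and 7 lower. Their median was -0.04, and 7 were past 1.2-fold, compared with 0 of the 6 SINEs. Lower changes at higher levels were not particular to SINEs. In the other classes the median was 0.17 between 0.03 and 0.1 RPKM (111 higher, 33 lower). Between 0.1 and 0.3 RPKM it was 0.09 (26 higher, 13 lower). Summed over the 37 families, SINE RPKM was 7.35 in the control and 7.43 in the Daxx-deleted library. The summed difference was -0.311 RPKM over the 8 lower families and 0.390 RPKM over the 29 higher ones.

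**Figure D4:**
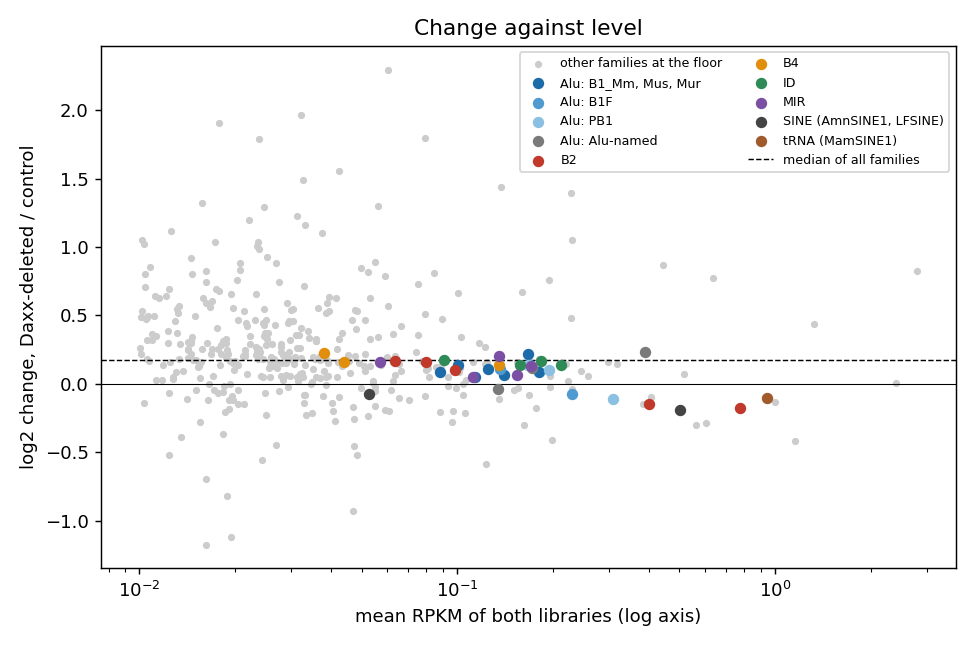
Log2 change (Daxx-deleted over control) against the mean RPKM of both libraries on a log axis for the 436 families at the floor, with SINE families coloured by group and other families in grey. Of the 6 SINE points above 0.3 RPKM, 5 lie below 0, and of the 31 SINE points under that level, 28 lie above 0, most of these under the dashed median of all families (0.18).

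Each value sums copies spread over the genome, and reads started at a SINE's own promoter were not separated from reads of longer transcripts that contain a SINE copy. How far the library preparation kept short RNA polymerase III transcripts was not checked, so the values are not a measure of transcription from SINE promoters. Feeder cells were present in both cultures, and their share of the RNA was not measured.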

How the data were processed

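RNA from 2 cultures of mouse ES cells, 1 library per group, was prepared with the TruSeq RNA Sample Prep Kit v2, per the labels' protocols. Per the info sheet of the deposited workbook, the authors used JAGuaR 2.1, a wrapper of BWA that includes exon junctions of Ensembl 67, to align reads to mm9. The authors kept multi-mapped reads for repeats and scaled the deposited RPKM by exonic reads of protein-coding genes; genes of mitochondrial and ribosomal proteins and the 0.5% of exons with the most expression were left out of that scale. BWA 0.7.10 is named in the submitters' processing notes. The sharing of multi-mapped reads, the repeat annotation and the use of strand: not given in the sources used here. Keeping such reads allows near-identical young copies to be counted and related families to hold the same reads. The column of element numbers is deposited by the authors, and 0 columns of other samples were present.

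Each column was matched to its sample by treatment. Whole reads were sought in the 54 families with the lowest product of level and copies: after the best common scaling, 8 of the quotients came within 0.4% of one between small whole numbers, so depth was not recovered. Log2 changes used a pseudocount of 0.001 RPKM, which understates changes of low families, and a floor of a mean of 0.01 RPKM and 100 copies; the fold was 1.5, with 1.2 beside it. Nothing was fitted or tested. The members, the settings and the groups inside the Alu superfamily were chosen with earlier results of these data known. All SINE families were named; of other classes, the L1 and L2 family with the most copies at the floor. The log2 change and the fold counts were checked on control values, some raised or lowered by a known factor without noise. That checks the arithmetic alone. Tools were Python 3.11.15, numpy 2.4.6, pandas 2.3.3, scipy 1.17.1 and matplotlib 3.10.9. Alternatives tried were other pseudocounts (0.0001, 0.01 and 0.1 RPKM), dropping the floor or raising it to 0.05 RPKM, at least 1000 copies, subtraction of the median family, 1.2-fold and 2-fold, weighting by copies and summed RPKM.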

Additional observations from a re-analysis of the deposited data

How the results depend on the processing

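With no replicates, a log2 value was counted as moved when it shifted by over 0.1 or changed sign. At 1.5-fold 0 SINE families were higher and 0 lower. This held under every alternative run except without a floor, where 1 was lower (Alu_5). The higher floor, the minimum of 1000 copies, 2-fold and the larger pseudocounts could not raise a count of 0, so those runs say nothing about it. Of the alternative values of the SINE, superfamily and age-group medians, 66 stayed and 11 moved, 10 of them when the median family (0.18) was subtracted. The medians there were -0.0583 for all SINEs, -0.0688 for Alu, -0.0721 for B2, -0.0155 for B4, -0.0221 for ID, -0.0483 for MIR, -0.307 for the superfamily SINE, -0.282 for tRNA, -0.0474 for rodent and -0.118 for older families, which follows from the subtraction. The limit of 0.1 is wide beside medians of this size: with a pseudocount of 0.1 RPKM the median fell to 0.0634 for all SINEs, 0.0651 for Alu, 0.0525 for B2, 0.0634 for B4, 0.0911 for ID, 0.0585 for MIR, 0.0658 for rodent and 0.0340 for older families, each over 1.5 times smaller. With at least 1000 copies the older median was 0.128. The other moved value was the log2 ratio of summed RPKM, 0.0153, in which the highest families weigh most. Of the 37 single families all moved on subtraction, and B3A, B4 and B4A moved with a pseudocount of 0.1 RPKM, where their levels are below it. No family of the superfamilies SINE and tRNA has 1000 copies, so their medians were not run there. No paired analysis was possible because only 1 library represents each condition. Unknown depth limits all values, most of all those of families with few copies.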
